A study of Mus musculus with 13 samples.

Results

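The cartilage matrix genes described here are 10 non-collagen genes, Acan, Hapln1, Comp, Matn1, Matn3, Matn4, Chad, Snorc, Cnmd and Ucma, out of 55332 genes with values in 13 mouse NUT carcinoma (mNC) tumors. They were chosen by name from their known place in cartilage, with earlier results of these data known, so that their levels and the differences between groups are given as a description and the fits below are not independent evidence about the list. All 10 were found by symbol, and all are protein-coding genes. NUT carcinoma is a poorly differentiated squamous carcinoma driven by fusions of NUTM1. In the NUT carcinoma translocator (NCT) mouse, tumors arise where Cre recombinase is active, and every group carried the NCT+/- allele and a Cre transgene.

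The 4 oral Sox2 WT tumors came from KRT14-Cre; NCT+/- mice and the 2 oral Sox2 KO tumors from mice labelled KRT4Cre; NCT+/-; Sox2fl/fl, although the study's methods name KRT14-Cre as the oral driver. The 4 pancreatic Sox2 WT tumors came from Pdx1-Cre; NCT+/- mice and the 3 pancreatic Sox2 KO tumors from mice labelled Pdx1-Cre; NCT+/-; Sox2fl; fl. KRT14-Cre is active in basal epithelium of the mouth, the skin and the salivary glands, and Pdx1-Cre in the pancreatic epithelium. Each library came from 1 whole dissected tumor, tumor cells and surrounding tissue together, and in such bulk RNA fewer cells of a type and less RNA per cell cannot be told apart. The labels do not say that the tumors of a group came from different animals, and p-values measure the spread between these tumors. The age of the mice was not given in the sources used here.

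Estimated counts totalled 11735031 to 120482588 per tumor. Depth was lower in the oral KO than in the oral WT tumors and higher in the pancreatic KO than in the pancreatic WT tumors, and the share of counts in protein-coding genes was 59.5% for oral KO 1 and 84.5% to 91.7% elsewhere. Sox2, the deleted gene, had 410 to 680 counts in oral WT and 0 and 1 in oral KO tumors, and 1111 to 1487 in pancreatic WT and 0 to 2 in pancreatic KO tumors. The squamous markers Krt5, Krt14 and Trp63 summed to 2804 CPM or more in every tumor, while 7 acinar markers of the pancreas summed to at most 3.11 CPM in 6 of the 7 pancreatic tumors. Here CPM is a gene's count scaled to a common library size, with TMM normalization over the 13 tumors. The detection floor of 3 counts corresponded to 0.0260 to 0.298 CPM, the highest value being that of oral KO 1.

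Cartilage matrix is a hydrated gel of proteoglycan held in a net of type II, IX and XI collagen. Aggrecan monomers sit on long hyaluronan chains and are locked there by link protein, while smaller proteins such as the matrilins and cartilage oligomeric matrix protein bridge proteoglycans and collagen fibrils. In chondrocytes, SOX9 with SOX5 and SOX6 switches on many of these genes. Neither squamous oral mucosa nor pancreas makes such a matrix, whereas the tissues around the mouth include cartilage and bone.

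The 10 genes had their highest levels in different tumors. Each of 7 tumors held the highest CPM of 1 or 2 of the genes. Scaled for transcript length, Hapln1 had the highest level of the 10 in all 7 pancreatic tumors, where it made up 31.2% to 95.7% of their summed CPM per kilobase. In the oral tumors the highest was Matn4 in 3, Acan in 2 and Cnmd in 1, with 23.4% of the sum or more. Ordered by mean CPM, neighbouring groups overlapped in range in 27 of 30 pairs (3 pairs for each gene). Neighbours in this order have the closest means, and the share over all genes was not computed. Of the pairs that lay apart, 3 in number, Comp and Matn4 were each higher in oral KO than in pancreatic KO tumors. The remaining pair was Hapln1, higher in pancreatic KO than in pancreatic WT tumors. The plot of length-scaled levels shows Hapln1 as the brightest row in the pancreas and the blank cells of Snorc, Cnmd and Ucma in the oral KO tumors.

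**Figure D1:**
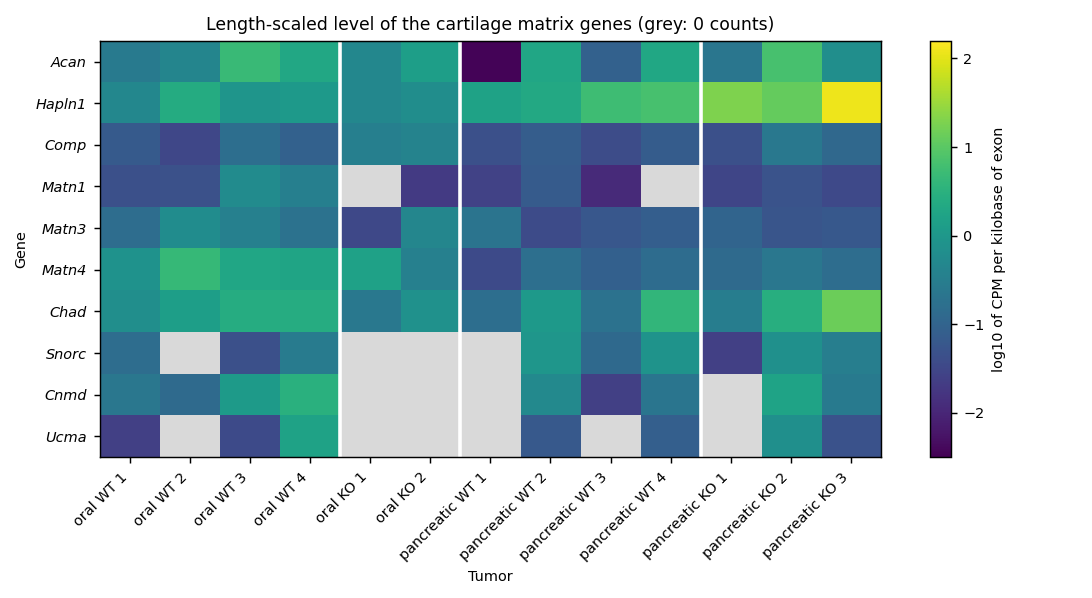
Level of the 10 genes (rows) in the 13 tumors (columns, white lines between groups) as log10 of CPM per kilobase of exon, with 0 counts in grey. Hapln1 leads in all 7 pancreatic tumors, and Snorc, Cnmd and Ucma have 0 counts in both oral KO tumors.

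Acan (ENSMUSG00000030607, chr7:79053483-79115099, plus strand, GRCm38) encodes aggrecan, the large chondroitin sulfate proteoglycan that gives cartilage its resistance to compression. Its level was 1.92, 3.20, 36.1 and 15.6 CPM in oral WT tumors 1 to 4 and 3.57 and 9.99 CPM in oral KO tumors 1 and 2. It was 0.0262, 14.2, 0.684 and 15.0 CPM in pancreatic WT tumors 1 to 4 and 1.67, 51.5 and 5.001 CPM in pancreatic KO tumors 1 to 3. Pancreatic KO 2 was the highest of the 13 tumors with 4588 counts and pancreatic WT 1 the lowest with 1 count, and KO and WT ranges overlapped in both tissues. As log2 fold changes, KO against WT gave -1.01 (SE 1.22, edgeR adjusted p = 0.585) in oral and 1.38 (SE 1.63, adjusted p = 0.735) in pancreatic tumors. The oral value was 0.06 without oral WT 3, and the pancreatic value was -1.13 without pancreatic KO 2, so that the sign in each tissue rested on 1 tumor.

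Within both WT groups Acan varied more than nearly all genes. The SD of its log2 CPM was 3.78 among the 4 pancreatic WT tumors, larger than in 99.9% of genes with counts (median SD 0.39), and 1.96 among the 4 oral WT tumors, larger than in 97.9% (median 0.43). The pancreatic WT value includes WT 1 with 1 count. In pancreatic KO tumors the SD of Acan was larger than in 99.3% of genes, and in oral KO tumors than in 81.1%. Other members varied as widely, among them Ucma (99.0%) and Cnmd (98.0%) in oral WT tumors. The gene closest to Acan in pattern over the 13 tumors, among 25836, was Col2a1, which encodes the main collagen of cartilage. After centring each gene, the mean absolute difference in log2 CPM was 1.03 for Col2a1, 1.05 for Hoxc13 and 1.14 for 1500015O10Rik, against a mean absolute deviation of 1.93 for Acan itself. These are the 3 nearest of many genes compared over tumors that share tissue and depth, and no test was made of them.

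Hapln1 (ENSMUSG00000021613, chr13:89539796-89611652, plus strand) encodes link protein, which fastens aggrecan and versican to hyaluronan. Its level was 2.85, 14.5, 5.35 and 6.20 CPM in oral WT tumors 1 to 4 and 2.78 and 3.79 CPM in oral KO tumors 1 and 2. In the pancreas it was 9.61, 12.9, 32.2 and 40.1 CPM in WT tumors 1 to 4 and 113, 73.3 and 715 CPM in KO tumors 1 to 3. Every pancreatic KO tumor lay above every pancreatic WT tumor, and pancreatic KO 3 lay far above the rest with 82497 counts. The group means were 300.5 ± 359.5 CPM in KO (SD, n = 3) and 23.7 ± 14.8 CPM in WT tumors (SD, n = 4), whereas in oral tumors they were 3.28 ± 0.711 CPM in KO (SD, n = 2) and 7.23 ± 5.07 CPM in WT tumors (SD, n = 4), with overlapping ranges.

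The log2 fold change of Hapln1 in the pancreas was 3.69 (SE 0.91) and was not called, with an edgeR adjusted p of 0.119, while DESeq2 called it with 0.000144. Over all alternatives its adjusted p ranged from 0.000144 to 0.274, and without pancreatic KO 3 the log2 fold change was 1.99. In oral tumors the log2 fold change was -1.05 (SE 0.64, adjusted p = 0.276). The difference between the tissues in the KO effect was itself fitted, and it was -4.78 on the log2 scale (SE 1.34, adjusted p = 0.0364) and was called. It was no longer called without pancreatic KO 3 (-3.09, adjusted p = 0.0753), without either oral KO tumor (-4.65 and -5.03), or without oral WT 2 or pancreatic WT 1, 2 or 3 (-4.19 to -4.96), and the adjusted p over all alternatives ranged from 0.000419 to 0.113.

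Pancreatic KO 3, the tumor with the most Hapln1, also had the most transcripts of acinar cells, the enzyme-secreting cells of the pancreas. The 7 acinar genes (Cpa1, Cpb1, Cel, Pnlip, Clps, Cela2a and Cela3b) summed to 116 CPM there and to 0.370 to 3.11 CPM in the other pancreatic tumors. All 7 reached 10 counts in pancreatic KO 3 and also in pancreatic WT 2, and 5 did in pancreatic WT 1. The part of this material in the Hapln1 level of pancreatic KO 3 was not tested. In pancreatic KO tumors 1 and 2, where the acinar sum was 0.813 and 0.796 CPM, Hapln1 lay above all 4 pancreatic WT tumors.

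**Figure D2:**
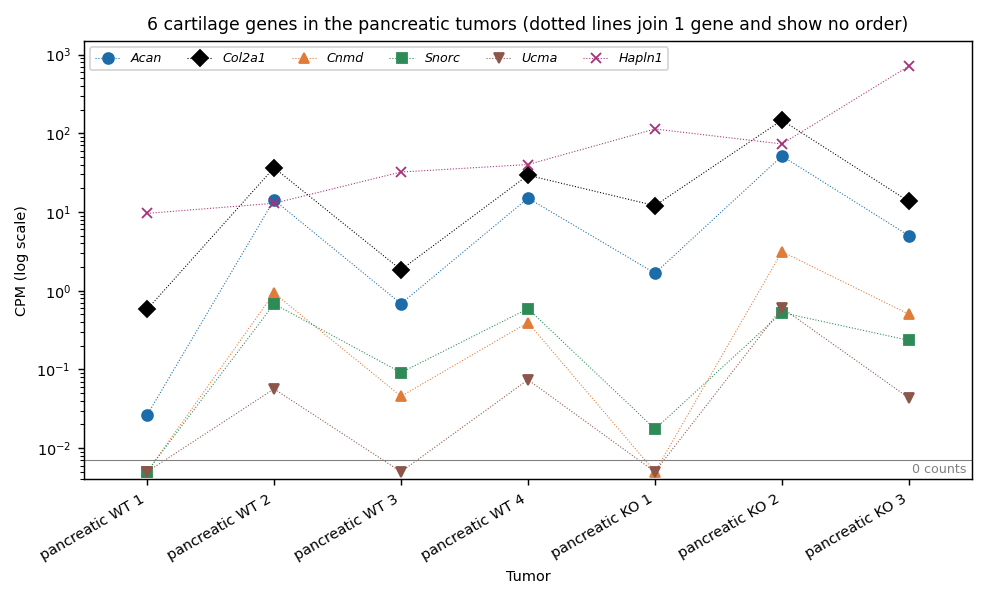
CPM on a log scale of Acan, Col2a1, Cnmd, Snorc, Ucma and Hapln1 in each of the 4 WT and 3 KO pancreatic tumors, with 0 counts drawn under the grey line. Acan, Snorc and Col2a1 have their 3 highest pancreatic levels in WT 2, WT 4 and KO 2, whereas Hapln1 has its 3 highest in the KO tumors.

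The upstream sequences of Acan and Hapln1 are shown because both are proteins of the same aggregate while they were highest in different pancreatic tumors, and that of Chad because it alone among the genes matched holds one of the motifs searched. They are the 250 bases before the RefSeq transcription start on GRCm38.p6, read 5′ to 3′ on the gene's own strand (plus for all 3), at chr7:79052976-79053225 for Acan, chr13:89540386-89540635 for Hapln1 and chr11:94564797-94565046 for Chad. RefSeq starts can differ from the GENCODE gene positions given here. The Hapln1 stretch lies inside the GENCODE gene, which starts at 89539796, and the Acan stretch does not adjoin the GENCODE start at 79053483. Capitals mark TATAAA, the core of a TATA box.
Acan: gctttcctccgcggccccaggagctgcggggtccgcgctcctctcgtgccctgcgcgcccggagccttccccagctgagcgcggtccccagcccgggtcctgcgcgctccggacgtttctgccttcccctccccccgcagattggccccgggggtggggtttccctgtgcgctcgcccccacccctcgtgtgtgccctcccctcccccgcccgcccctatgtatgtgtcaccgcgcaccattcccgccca
Hapln1: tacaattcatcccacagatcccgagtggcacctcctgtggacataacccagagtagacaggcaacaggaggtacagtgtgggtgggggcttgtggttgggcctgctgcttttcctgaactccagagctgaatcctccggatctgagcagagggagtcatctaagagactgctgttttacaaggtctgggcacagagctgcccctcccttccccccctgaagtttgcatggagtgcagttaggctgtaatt
Chad: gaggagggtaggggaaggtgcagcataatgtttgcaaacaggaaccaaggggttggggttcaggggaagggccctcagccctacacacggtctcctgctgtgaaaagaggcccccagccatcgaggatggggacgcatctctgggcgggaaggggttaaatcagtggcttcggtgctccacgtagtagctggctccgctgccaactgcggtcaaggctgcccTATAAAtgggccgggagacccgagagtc

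Of the 10 genes, 8 had an upstream sequence in RefSeq (not Comp and Snorc). ACAAAG and ACAATG, cores bound by SOX proteins, were searched on both strands and stood in 0 of the 8 genes, against 16.5% and 10.7% of 32851 upstream sequences of the same length over all genes and 25.2% with either. TATAAA on either strand was in 1 of the 8, in Chad at 28 bases before the start, against 12.4% of all. The Acan sequence was 74.4% G and C and that of Hapln1 54.4%. A match describes letters only, and the lack of one says only that they are not in this stretch.

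Comp (ENSMUSG00000031849, chr8:70373558-70382066, plus strand) encodes cartilage oligomeric matrix protein, a thrombospondin of cartilage and tendon that binds collagen fibrils. Its level was 0.199, 0.0924, 0.475 and 0.276 CPM in oral WT tumors 1 to 4 and 0.993 and 1.21 CPM in oral KO tumors 1 and 2. Both oral KO tumors lay above all oral WT tumors, but on only 10 and 31 counts, against 3 to 15 in WT. In the pancreas Comp was 0.131, 0.226, 0.114 and 0.222 CPM in WT tumors 1 to 4 and 0.131, 0.706 and 0.364 CPM in KO tumors 1 to 3, and the ranges overlapped.

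Comp had a log2 fold change of 2.15 (SE 0.64, edgeR adjusted p = 0.0634) in oral and 1.21 (SE 0.59, adjusted p = 0.372) in pancreatic tumors. One fit of all 13 tumors gave an adjusted p of 0.0325 for the oral value, and the range over its alternatives was 0.0325 to 0.211. In the oral tumors Comp was the only one of the 8 genes tested with a log2 fold change above 0. The genes closest to Comp in pattern over the 13 tumors were Mir23a, Gm37598 and Podn, with mean absolute differences of 0.37, 0.40 and 0.40 against a mean absolute deviation of 0.87 (log2 CPM). Skeletal muscle transcripts were also high in both oral KO tumors. Summed over 12 muscle genes they were 5632 and 3108 CPM there, 576 CPM in oral WT 4, and 15.6 to 28.9 CPM in oral WT tumors 1 to 3. Whether Comp came with that tissue was not tested.

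The matrilins are adaptor proteins with von Willebrand factor A domains that join collagen fibrils to proteoglycans. Matn1 (ENSMUSG00000040533, chr4:130944385-130955475, plus strand) is the form most restricted to cartilage. It was at 0.0883, 0.0924, 1.17 and 0.666 CPM in oral WT tumors 1 to 4, and had 0 and 1 counts in oral KO tumors 1 and 2. Both KO tumors lay below all WT tumors, but oral WT tumors 1 and 2 were themselves below the floor of the KO libraries (0.298 and 0.117 CPM), so that a difference from them was not detectable at this depth. In the pancreas Matn1 never passed 9 counts. Across the WT tumors Matn1 was at 0.505 ± 0.521 CPM (SD, n = 4) in oral against 0.0542 ± 0.0621 CPM (SD, n = 4) in pancreatic tumors, with a log2 fold change of 3.21 (SE 0.98, adjusted p = 0.0343) and overlapping ranges. Matn1 reached 10 counts in oral WT 3 and 4 alone and so passed the filter on low counts only through the group where it was high, which fixed the direction. The edgeR call was lost in the fit of the 8 WT tumors alone (adjusted p = 0.0644) and without pancreatic WT 1, 3 or 4 (0.0704 to 0.0931), with a range over all alternatives of 0.0112 to 0.0956. Without oral WT 3 or 4 Matn1 did not pass the filter and was not tested.

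Matn3 (ENSMUSG00000020583, chr12:8947929-8972028, plus strand) encodes a matrilin of growth plate cartilage. It was at 0.463, 1.82, 1.05 and 0.574 CPM in oral WT tumors 1 to 4, at 0.0993 and 1.37 CPM in oral KO tumors 1 and 2, and at 0.113 to 0.604 CPM over the 7 pancreatic tumors. Oral against pancreatic WT tumors gave a log2 fold change of 1.75 (SE 0.68, adjusted p = 0.0851), not called by edgeR. DESeq2 gave an adjusted p of 0.0407, and the range over the alternatives was 0.0407 to 0.263. The KO values were -0.23 (SE 0.89) in oral and -0.35 (SE 0.57) in pancreatic tumors, both smaller than their standard errors.

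Matn4 (ENSMUSG00000016995, chr2:164389393-164405160, minus strand) encodes a matrilin that is also made outside cartilage. Its level was 4.105, 23.2, 10.01 and 8.94 CPM in oral WT tumors 1 to 4 and 8.04 and 1.83 CPM in oral KO tumors 1 and 2. In the pancreas it was 0.184, 0.849, 0.456 and 0.764 CPM in WT tumors 1 to 4 and 0.682, 1.21 and 0.797 CPM in KO tumors 1 to 3. All 6 oral tumors lay above all 7 pancreatic tumors. Between the WT groups the log2 fold change was 4.36 (SE 0.67, edgeR adjusted p = 0.00108), and the call was kept wherever Matn4 was tested, at 3.77 to 4.64. KO and WT ranges overlapped in both tissues, with log2 fold changes of -1.15 (SE 0.84, adjusted p = 0.36) in oral and 0.68 (SE 0.49, adjusted p = 0.55) in pancreatic tumors.

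**Figure D3:**
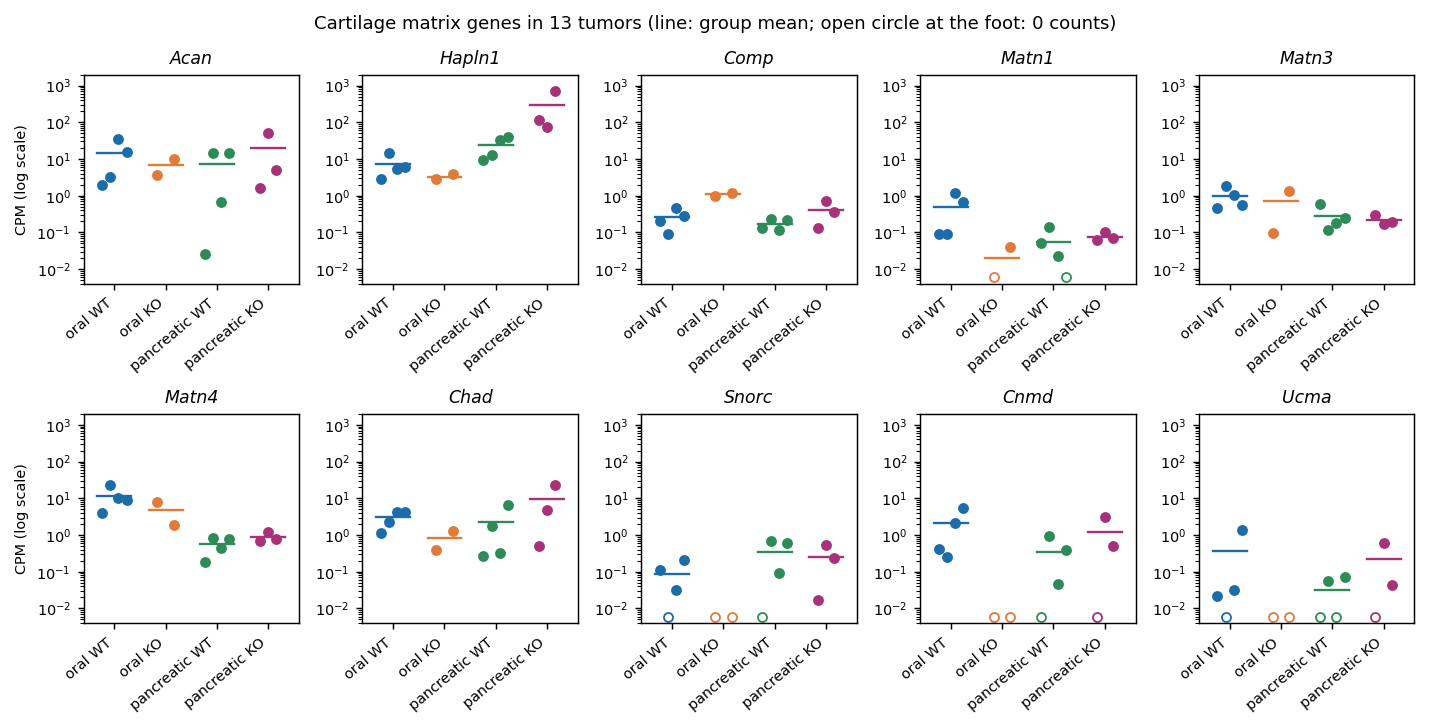
CPM on a log scale of the 10 genes in each tumor (points, by group), with the group mean as a line and tumors at 0 counts as open circles at the foot of each panel. Matn4 lies higher in all 6 oral than in all 7 pancreatic tumors, and Hapln1 higher in the 3 pancreatic KO than in the 4 pancreatic WT tumors.

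Chad (ENSMUSG00000039084, chr11:94565047-94569127, plus strand) encodes chondroadherin, a leucine-rich repeat protein that ties chondrocytes to the matrix. Its level was 1.10, 2.28, 4.37 and 4.30 CPM in oral WT tumors 1 to 4 and 0.397 and 1.29 CPM in oral KO tumors 1 and 2. In the pancreas it was 0.262, 1.78, 0.319 and 6.48 CPM in WT tumors 1 to 4 and 0.516, 4.75 and 23.1 CPM in KO tumors 1 to 3. The highest value was that of pancreatic KO 3, the tumor with the most acinar transcripts, and the ranges of KO and WT overlapped in both tissues. KO against WT gave -1.71 on the log2 scale (SE 0.75, edgeR adjusted p = 0.149) in oral and 2.12 (SE 1.39, adjusted p = 0.514) in pancreatic tumors. Without pancreatic KO 3 the pancreatic value was 0.27, and without pancreatic WT 4 it was 3.62.

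Snorc (ENSMUSG00000026258, chr1:87470271-87475482, plus strand) encodes a small membrane proteoglycan of chondrocytes. It was low throughout, at 0 to 0.207 CPM in the oral WT tumors, with 0 counts in both oral KO tumors, at 0, 0.679, 0.0912 and 0.592 CPM in pancreatic WT tumors 1 to 4 and at 0.0175, 0.527 and 0.234 CPM in pancreatic KO tumors 1 to 3. Only 4 of the 13 tumors reached 10 counts. In the oral tumors Snorc could not be tested, and a KO level like that of the WT tumors was not detectable in oral KO 1, where 3 counts correspond to 0.298 CPM. In oral KO 2, where 3 counts correspond to 0.117 CPM, only a level like that of oral WT 4 (0.207 CPM) was detectable. In the pancreas the log2 fold change was -0.38 (SE 1.23, adjusted p = 0.913), and it was 0.18 without pancreatic WT 2.

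Cnmd (ENSMUSG00000022025, chr14:79637690-79662170, minus strand) encodes chondromodulin, a membrane protein whose released part restrains the growth of blood vessels into cartilage. Its level was 0.419, 0.246, 2.12 and 5.58 CPM in oral WT tumors 1 to 4, and both oral KO tumors had 0 counts. Both oral KO tumors therefore lay below all oral WT tumors. With 3 counts set for each KO library, Cnmd was at least 10.1-fold lower in KO (0.207 CPM) than in WT tumors (2.09 ± 2.48 CPM, SD, n = 4), a bound that rests on oral WT 3 and 4, since oral WT 2 at 0.246 CPM was close to the KO floor. Since Cnmd passed the filter only through oral WT tumors, it could differ only in this direction. The edgeR adjusted p was 0.0952 and Cnmd was not called, while DESeq2 gave 0.00102, and the range over the alternatives was 0.00102 to 0.274.

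In the pancreas Cnmd was at 0, 0.934, 0.0456 and 0.394 CPM in WT tumors 1 to 4 and at 0, 3.14 and 0.503 CPM in KO tumors 1 to 3, with overlapping ranges. On the log2 scale the difference was 1.84 (SE 1.64, adjusted p = 0.639), and it turned to -0.39 without pancreatic KO 2. The genes closest to Cnmd in pattern were Spock2, Sbspon and Gzmb, with mean absolute differences of 1.10, 1.23 and 1.28 against a mean absolute deviation of 2.14 (log2 CPM). For the mean profile of the 10 genes they were Nfix, Dact3 and Eif5a2, with 0.42, 0.42 and 0.46 against 0.91.

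Ucma (ENSMUSG00000026668, chr2:4976122-4985748, plus strand) encodes a vitamin K-dependent matrix protein of the upper growth plate. It had 0 counts in 6 of the 13 tumors and 10 or more in 2. These were oral WT 4 with 61 counts (1.40 CPM) and pancreatic KO 2 with 54 counts (0.606 CPM). In the other 11 tumors it had at most 5 counts, and it was tested in neither KO comparison. Oral WT 4 also had the most Cnmd of all 13 tumors.

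Counted over the comparisons, edgeR called 0 of the 8 genes tested in oral KO against oral WT tumors, where 11.7% of 22342 genes were called in either direction. At an unadjusted p under 0.05 there were 2 of the 8, where 35.4% of all genes were, and DESeq2 called 1, Cnmd, and 4005 of all 22342 genes. The log2 fold change was above 0 for 1 gene and below 0 for 7, with a median of -1.1 (the same with Cnmd at its bound) against 0.0 over all genes tested. Cnmd and Matn1 passed the filter only through oral WT tumors, so their direction was fixed by it. Groups did not overlap for 3 of the 8, Comp in the higher and Matn1 and Cnmd in the lower direction, where 48.0% of all genes tested did not overlap. The share of 11.7% depended on the genes fitted. With protein-coding genes alone, as all 10 members are, edgeR called 27 of 16352 genes.

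In pancreatic KO against pancreatic WT tumors edgeR called 0 of the 8 genes tested, where 0.629% of 24653 genes were called. At an unadjusted p under 0.05 there was 1 of the 8, Hapln1, where 15.9% of all genes were. DESeq2 called Hapln1, and 1111 of all 24653 genes. For 6 genes the value was above 0 and for 2 below, with a median of 1.3 against 0.02 over all genes. Groups did not overlap for 1 of the 8, Hapln1, where 15.6% of all genes tested did not overlap. A difference in the KO effect between the tissues was called for 1 of the 10 genes, Hapln1, where 12.3% of 25836 genes were called. Chad (-3.85, SE 1.97, adjusted p = 0.19) and Acan (-2.42, SE 2.38, adjusted p = 0.5) did not pass the test of this difference.

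Between oral and pancreatic WT tumors, which share their WT tumors with the KO comparisons, edgeR called 2 of the 10 genes, Matn4 and Matn1, where 15.5% of 25836 genes were called. Matn4 was higher in oral tumors, and the direction of Matn1 was fixed by the filter, as described above. The log2 fold change was above 0 for 8 genes and below 0 for Hapln1 (-1.72, SE 0.75, adjusted p = 0.125) and Snorc (-1.85, SE 1.26, adjusted p = 0.332). Among those above 0, Ucma (3.45, SE 1.92) rests on oral WT 4 with 61 counts, every other WT tumor having at most 3 counts. The median was 1.34 against 0.0 over all genes. Groups did not overlap for 1 of the 10, Matn4, where 25.9% of all genes tested did not overlap. Other differences between the sites went along with these. The 7 osteoblast genes summed to 121 to 418 CPM in oral WT and 5.47 to 7.53 CPM in pancreatic WT tumors, and the 8 fibroblast genes to 8703 to 19070 CPM and 1144 to 2232 CPM. Their part in the level of Matn4 was not tested.

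**Figure D4:**
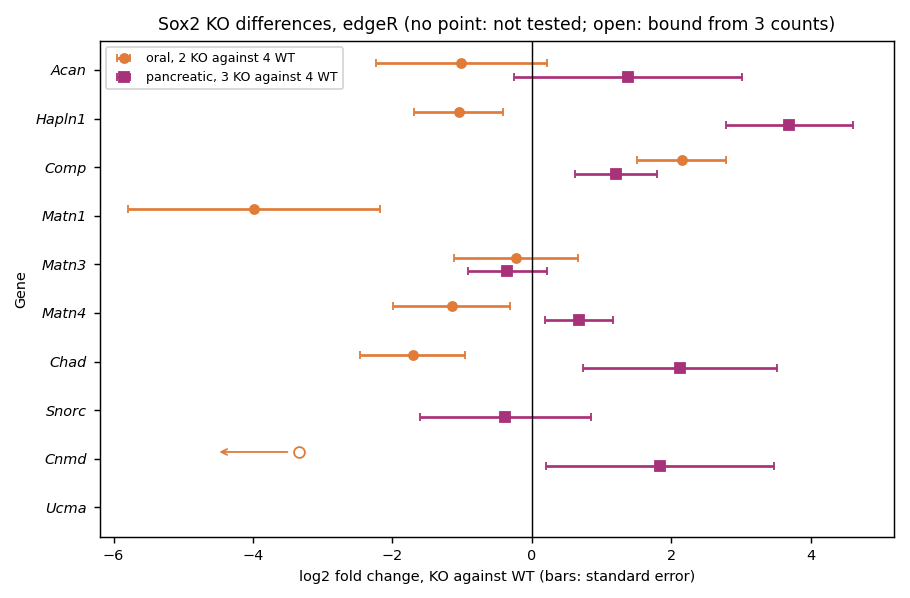
Log2 fold change of KO against WT for the tested genes, oral (circles) and pancreatic (squares) with standard errors as bars. The open circle with an arrow is the bound for Cnmd, whose oral KO tumors have 0 counts. Hapln1 has the largest pancreatic value, 3.69, and Comp the only oral value above 0.

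Other cartilage genes were followed as lists chosen by function. Over all genes tested, 11.7% were called in oral KO, 0.629% in pancreatic KO and 15.5% between the WT groups. With protein-coding genes alone these calls were 27 of 16352, 10 of 16855 and 3232 of 17462 genes. Of 6 transcription factors of chondrocytes (Sox9, Sox5, Sox6, Nkx3-2, Runx2 and Runx3), 0 of 5 tested were called in oral and 0 of 6 in pancreatic KO tumors. Sox9, the main driver of the chondrocyte program, was at 46.6 to 219.9 CPM in oral WT, 36.3 and 62.6 CPM in oral KO, 197 to 728 CPM in pancreatic WT and 450 to 868 CPM in pancreatic KO tumors. It was lower in oral than in pancreatic WT tumors (log2 fold change -1.94, SE 0.54, adjusted p = 0.0249), whereas Matn4 was higher there. Sox5 was at 1.58, 24.3, 3.17 and 19.0 CPM in pancreatic WT tumors 1 to 4 and 10.8, 27.8 and 19.0 CPM in KO tumors 1 to 3, and Sox6 at 7.98, 17.8, 13.3 and 21.8 CPM and 1.21, 18.1 and 9.88 CPM.

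Of the 8 cartilage collagen genes, 0 were called in oral (11.7% of all genes) and 1 in pancreatic KO tumors (0.629% of all genes). That one was Col10a1, the collagen of hypertrophic chondrocytes, at 1.65 to 3.48 CPM in pancreatic WT and 23.01, 19.8 and 20.6 CPM in pancreatic KO tumors (log2 fold change 3.16, SE 0.29, adjusted p = 0.00425). It was higher in all 3 KO tumors, as Hapln1 was, while the KO and WT ranges of Acan overlapped. Col2a1 was at 5.69, 2.59, 11.4 and 19.4 CPM in oral WT and 3.48 and 8.16 CPM in oral KO tumors. In the pancreas it was at 0.577, 36.5, 1.85 and 29.3 CPM in WT tumors 1 to 4 and 12.04, 147 and 13.6 CPM in KO tumors 1 to 3. The 3 pancreatic tumors with the most Acan were WT 2, WT 4 and KO 2. They also held the 3 highest pancreatic levels of Ucma, Snorc, Sox6 and Col2a1. Among genes with 10 counts in a pancreatic tumor, these were 3 of 9 of the list, 1 of 6 transcription factors and 1 of 8 collagens. Acan is 1 of the 3 by definition, since it set the choice of tumors, and the share over all genes was not computed. The place of Ucma rests on 2 and 3 counts in WT 2 and WT 4, which are at or under the floor. A match of the 3 highest tumors is a narrow measure. Over the 7 pancreatic tumors the Pearson correlation with Acan in log2 CPM was 0.41 for Sox6, 0.96 for Sox5, 0.92 for Sox9 and 0.98 for Col2a1. For the squamous marker Krt5 it was also 0.92, for Hapln1 0.33 and for Matn3 -0.77. These correlations include pancreatic WT 1 with 1 count of Acan and were not tested.

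Among the other cartilage matrix genes (8), Clec3a had 0 counts in every tumor. In oral KO tumors 1 of 6 tested was called (11.7% of all genes), and in pancreatic KO tumors 0 of 6 (0.629% of all genes). Epyc, which encodes epiphycan, a small proteoglycan of epiphyseal cartilage, was at 55.1, 95.8, 173 and 187 CPM in oral WT tumors 1 to 4 and 2.58 and 0.195 CPM in oral KO tumors 1 and 2. It was lower in oral KO tumors, by a log2 fold change of -6.66 (SE 1.19, adjusted p = 0.0251), and it had 0 counts in all 4 pancreatic WT tumors. Of 5 growth plate signalling genes 0 were called in either tissue, and of 4 proteases of the aggrecan-cleaving list 0 were called in either, Mmp13 being higher in oral than in pancreatic WT tumors (log2 fold change 3.77, SE 0.57, adjusted p = 0.00107).

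Of 13 relatives of the members, 3 of 12 tested were called in oral and 0 of 10 in pancreatic KO tumors. Over all genes 11.7% and 0.629% were called. Matn2, the remaining matrilin, was at 47.7, 65.2, 48.5 and 44.1 CPM in oral WT and 20.0 and 20.5 CPM in oral KO tumors, and was lower in KO (log2 fold change -1.26, SE 0.22, adjusted p = 0.0228). Thbs4, a thrombospondin related to Comp, was higher in KO at 45.5 and 60.5 CPM against 10.04 to 25.7 CPM in WT (1.72, SE 0.36, adjusted p = 0.0296). Ncan, a relative of aggrecan known from the brain, was higher at 1.89 and 2.07 CPM against 0.437 to 0.831 CPM (1.92, SE 0.43, adjusted p = 0.0337). Vcan, which encodes versican, ranged from 50.9 to 442 CPM over the 13 tumors and was called in neither tissue. Between the WT groups 7 of 12 relatives were called, all higher in oral tumors, where 15.5% of all genes were called in either direction.

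Among lists for other tissues, the oral KO comparison called 1 of 12 skeletal muscle genes higher (Myh4), 2 of 8 fibroblast genes lower (Dcn and Lum), 0 of 7 osteoblast, 0 of 3 tendon, 0 of 4 Schwann, 0 of 2 adipocyte, 0 of 3 keratinocyte genes and 0 of 1 acinar gene tested. Although only Myh4 was called, all 12 muscle genes had a log2 fold change above 0 there, with a median of 4.01 against 0.0 over all genes. The pancreatic KO comparison called 1 of 6 osteoblast genes, Bglap, lower, and 0 of 8 muscle, 0 of 2 tendon, 0 of 8 fibroblast, 0 of 4 Schwann, 0 of 3 adipocyte, 0 of 3 keratinocyte and 0 of 7 acinar genes. Over all genes tested, 11.7% were called in the oral and 0.629% in the pancreatic KO comparison. Tendon genes summed to 7.89 to 27.4 CPM in oral WT tumors and to 8.74 and 8.67 CPM in oral KO tumors.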

How the data were processed

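RNA of 13 tumors, 1 library each, was depleted of ribosomal RNA and sequenced strand-specifically. The authors trimmed reads (Trim Galore 0.6.10, FastQC 0.12.1), quantified them with Kallisto 0.50.0 on GENCODE M23 (GRCm38) and summed them per gene with tximport. The deposited values are estimated counts, not normalized, of which 27.29% were not whole. They were rounded. Symbols, positions and exon lengths came from GENCODE M21, which holds 55141 of 56085 identifiers. At most 0.274% of the 31-base sequences of a member were found in another gene.

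Genes reaching 10 counts in 2 or more of the tumors fitted were tested with edgeR 4.0.16 (TMM, robust quasi-likelihood test, Benjamini-Hochberg adjustment over all genes) in R 4.3.3, within each tissue for KO against WT and over 13 tumors for the WT groups and the interaction. A call required an adjusted p under 0.05 with a log2 fold change past 1 in size. Log2 CPM used a prior count of 2. Limits from 3 counts cover counting error only. Alternatives were DESeq2 1.42.0 with and without apeglm 1.24.0, its size factors, other filters, protein-coding genes alone, thinned counts, other sample sets, a replicate block and leaving out each tumor. The fits were tested on simulated data.

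The members and all lists were chosen with earlier results of these data known. All members are named. From other lists, genes with the 2 largest and 2 smallest log2 fold changes in a comparison could be named, not all of which were, and likewise Sox9, Sox5, Sox6, Col2a1 and the relatives. The genes closest in pattern have the smallest mean absolute difference in centred log2 CPM.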

Additional observations from a re-analysis of the deposited data

Results flagged for a closer look

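Ucma was at 1.402 CPM in oral WT 4, far from the other 3 oral WT tumors (0 to 0.0317 CPM), so that a gap test for a single distant value marked it. It was 1 of 16 sets of values tested. Chance marks about 1 in 20 if values are normally distributed, which was not checked for these values near the floor. The fitted difference between the tissues in the KO effect on Hapln1 was -4.78 on the log2 scale (oral minus pancreatic, SE 1.34, edgeR adjusted p = 0.0364). The call was lost without pancreatic KO 3 and without any of several other single tumors, as given above. It was also lost without a count filter, with protein-coding genes alone and with the replicate block. Hapln1 was higher in 3 of 3 pancreatic KO tumors than in any pancreatic WT tumor, while both oral KO tumors lay within or below the range of the oral WT tumors.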

How the results depend on the processing

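In the KO comparisons 0 genes were called with edgeR. DESeq2, with or without apeglm, called 1 in oral (Cnmd) and 1 in pancreatic tumors (Hapln1), one fit of all 13 tumors called 1 in oral tumors (Comp), and leaving out 1 tumor called 0 to 0 in both tissues. Of the 2 genes called between the WT groups, 0 were called with 10 counts required in every tumor (1 was tested), 1 in the fit of the 8 WT tumors alone and 1 with the replicate block (Matn4 in both), and 1 to 3 on leaving out 1 tumor. The 1 gene called for the difference in KO effect, Hapln1, was 0 without a count filter, with protein-coding genes alone and with the replicate block (adjusted p 0.0737, 0.0612 and 0.0608), 2 with DESeq2 (Hapln1 and Cnmd) and 0 to 1 on leaving out 1 tumor. Replicate numbers were not taken to pair the tumors. Deviations of same-numbered KO and WT tumors correlated at -0.08 and -0.038 in oral and 0.317, -0.025 and -0.069 in pancreatic tumors. The 2 oral values are not independent, since deviations of 2 KO tumors from their mean mirror each other. In the pancreas 1 of 3 KO tumors correlated best with its own number. Such correlations cannot show whether tumors were matched. With the replicate block the log2 fold change turned to 1.38 for Acan in oral and 0.45 for Snorc in pancreatic tumors. The Matn3 difference in KO effect (0.09) turned to -0.08 with it. That difference was also -0.05 without a count filter and -0.0 with DESeq2. On leaving out 1 tumor the sign also turned for oral Matn3 (-3.13 to 0.55) and Acan (-1.89 to 0.06), for pancreatic Matn3 (-0.65 to 0.28), Cnmd (-0.39 to 3.04), Snorc (-1.38 to 0.19) and Acan (-1.13 to 1.97), for Acan between the WT groups (-0.11 to 1.53), and for the difference in KO effect of Matn3 (-2.89 to 0.81) and Acan (-3.36 to 0.12). The cause was not tested. Over all values of single members, leaving out 1 tumor kept direction and side of the threshold in 323 cases, lost a call in 10, gained one in 4 and turned the sign in 17, and the other alternatives did so in 277, 5, 7 and 5. Over all genes the calls ranged more widely. In oral KO 2614 genes were called, against 5082 in one fit of 13 tumors, 4005 with DESeq2, 27 with protein-coding genes alone, 65 with the block and 36 to 2616 on leaving out 1 tumor. In pancreatic KO 155 were called, against 92 in one fit of 13 tumors, 75 with 10 counts in every tumor, 239 without a filter, 1111 with DESeq2, 890 with apeglm, 10 with protein-coding genes alone, 590 with the block and 43 to 269 on leaving out 1 tumor. Between the WT groups 4012 were called, against 2332 with 10 counts in every tumor. For the difference in KO effect 3168 were called, against 1829 with thinned counts, 791 with protein-coding genes alone, 1458 with the block and 1510 to 4162 on leaving out 1 tumor. Depth limits Matn1, Snorc, Ucma and Cnmd in the oral KO tumors, where 3 counts stand for 0.298 and 0.117 CPM.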
